A study of Mus musculus with 12 samples.

Results

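The mitochondrial respiratory chain genes are the nuclear genes for the subunits of complexes I to V on an Illumina mouse BeadChip. They were taken by symbol: Ndufa, Ndufb, Ndufc, Ndufs and Ndufv genes for complex I, Sdha to Sdhd for complex II, Uqcr genes for complex III, Cox4 to Cox7 genes for complex IV and Atp5 genes for complex V. A symbol was kept where a probe had a detection p under 0.01 on at least 2 of the 12 arrays, and its brightest probe stood for the gene. Of 76 symbols on 116 matching probes, 72 were kept, out of 12248 features (1 probe per gene, and probes with no gene name) in all. They comprised 34 genes of complex I, 3 of complex II, 6 of complex III, 13 of complex IV and 16 of complex V. The 4 symbols that were not detected on enough arrays were Ndufs1, Sdha, Uqcrfs1 and Cox7b2, so no value is given for these, of which Ndufs1, Sdha and Uqcrfs1 encode core subunits of complexes I, II and III.

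The study measured total RNA of mouse CD4+ T cells, on 12 arrays in 5 groups. The first experiment exposed naive splenic CD4+ T cells to interleukin-7 (IL-7), the cytokine that keeps resting T cells alive, and took 2 arrays each at 0, 6 and 24 h. For the second experiment cells were grown for 3 days under conditions that give Th9 cells, the helper T cells that secrete IL-9. The 3 arrays of the group Th9 came from cells without IL-7 and the 3 arrays of the group IL7 Th9 from naive cells first treated with IL-7 for 48 h. The sources used here do not say how the group Th9 was kept during those 48 h. All mice were 2 months old. The strain label is B6.Cg-Tg(TcraTcrb)425Cbn/J, the line known as OT-II, whose transgenic T cell receptor recognises an ovalbumin peptide, while the series' design text gives C57BL/6. The sources do not say whether the replicates of a group were separate animals or cultures, so every p-value reflects just the spread among these arrays, which may be technical.

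The respiratory chain moves electrons from NADH and succinate through complexes I to IV to oxygen and pumps protons across the inner mitochondrial membrane, and complex V (ATP synthase) uses the proton gradient to make ATP. Most of its subunits are encoded in the nucleus and imported, while a small core of hydrophobic subunits is encoded in mitochondrial DNA. Resting T cells rely largely on this chain for ATP, and activated T cells that grow and divide are known to enlarge their mitochondria alongside a rise in glycolysis.

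Levels below are log2 signals after background correction and quantile normalisation. A gene was said to have risen or fallen where limma's moderated test gave a Benjamini-Hochberg adjusted p under 0.05 over all features, and ± marks the standard error of a log2 difference. Between 67 and 72 of the 72 genes were detected on any 1 array, and 66 were detected on every array. The mean deposited signal of an array ran from 116.1 to 245.2, and 28.3% to 34.5% of all probes were detected. T cell identity was as labelled, with 11 of 12 T cell marker genes detected on every array. Il9 was detected on all 6 arrays of the second experiment (238.3 to 1100.8 in deposited signal) and on none of the first (-7.6 to 2.9). One array stood apart: 6 h replicate 1 had the highest signal of its experiment for 8 of 9 B cell marker genes (summed signal 7571.9, against 107.5 to 468.1 on the other 5), for 13 of 17 myeloid genes (8592.2, against 1314.9 to 2343.1) and for 4 of 5 red cell genes (3068.2, against 110.4 to 1214). The B cell marker Cd74 and the macrophage marker C1qb were at 4418.3 and 439.1 there and at most 230.4 and 17.2 on the other 5. Over the 72 genes the 6 h replicates correlated at 0.988, against 0.998 at 0 h and 0.997 at 24 h. Because the RNA comes from whole cell preparations, fewer cells of a type and less RNA per cell cannot be told apart.

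In naive cells given IL-7 for 6 h, no respiratory chain gene rose and 5 of the 69 tested fell: Ndufb2 of complex I, Uqcrq of complex III, Cox7a2 and Cox7b of complex IV, and Atp5md of complex V. The 5 falls lay between 0.71 and 0.96 on the log2 scale, and the other 64 genes did not pass the test. Over all 11040 features 9.51% were called (4.2% as rises and 5.31% as falls), and 7.25% of the respiratory chain genes were called, a share near that of the array as a whole. That nearness did not hold without 6 h replicate 1, the array with other cells' markers, where 23.7% of all features and 7.25% of the respiratory chain genes were called. Without 0 h replicate 1 or 2, 3 or 4 features were called in all. Of the 69 genes 51 lay below 0, while 46.6% of all features lay above 0. The median log2 fold change was -0.11 over the 69 genes, against -0.03 over all features. With each array scaled to its mean these medians were -0.18 and 0. The 2 arrays at 6 h lay wholly below the 2 at 0 h for 30 genes (32% of all features) and wholly above for 7 (25.8% of all features).

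Ndufb2, an accessory subunit of the membrane arm of complex I, had log2 signals of 7.15 and 7.06 at 0 h, 6.02 and 6.27 at 6 h, and 6.75 and 6.54 at 24 h. Both 6 h arrays lay below every other naive array. The gene fell by 0.96 at 6 h (SE 0.15, adjusted p = 0.019 by limma), and at 24 h its difference from 0 h was -0.46 ± 0.15, which did not pass the test (adjusted p = 0.12).

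Uqcrq, a small subunit of the ubiquinol-binding complex III, stood at 8.98 on both 0 h arrays, at 8.16 and 8.15 at 6 h, and at 8.12 and 8.01 at 24 h. All 4 arrays after IL-7 lay below both untreated arrays. It fell by 0.83 at 6 h (SE 0.12, adjusted p = 0.017) and by 0.92 at 24 h (SE 0.12, adjusted p = 0.016), and these comparisons share the 0 h arrays.

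Cox7a2, the form of cytochrome oxidase subunit VIIa found in most tissues, was at 7.41 and 7.39 at 0 h, 6.5 and 6.52 at 6 h, and 6.75 and 6.47 at 24 h. Here too the arrays after IL-7 all lay below the untreated ones. The fall was 0.89 at 6 h (SE 0.14, adjusted p = 0.020) and 0.79 at 24 h (SE 0.14, adjusted p = 0.033). Cox7b, another small subunit of the same complex, was at 7.04 and 6.99 at 0 h, at 6.34 and 6.27 at 6 h, and at 6.55 and 6.84 at 24 h. It fell by 0.71 at 6 h (SE 0.14, adjusted p = 0.035) and the groups at 0 and 24 h did not overlap, but that difference did not pass the test.

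Atp5md, a small membrane subunit linked to dimers of ATP synthase, was at 6.93 and 6.96 at 0 h, 6.02 and 6.23 at 6 h, and 6.39 and 6.43 at 24 h. The order was the same as for Ndufb2 and Cox7b, with 6 h lowest and 24 h between. The fall was 0.81 at 6 h (SE 0.13, adjusted p = 0.020), and the difference at 24 h was -0.53 ± 0.13 (adjusted p = 0.066). None of these 5 genes has another detected probe on the array, so each value rests on 1 probe.

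**Figure D1:**
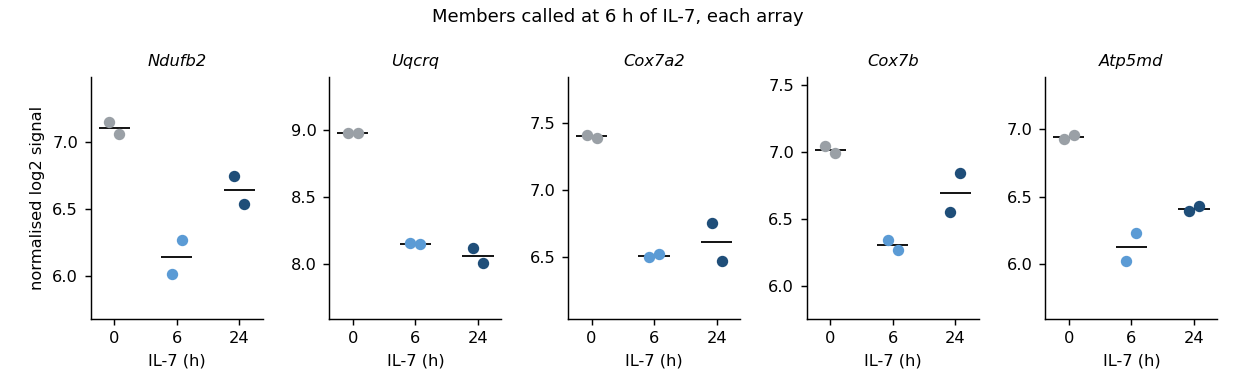
Normalised log2 signal (vertical axes, 1 panel per gene, each with its own range) of the 5 respiratory chain genes that fell at 6 h, against hours of IL-7. Points are arrays (2 per time) and bars are group means; in each panel both 6 h arrays lie below both 0 h arrays, and in Uqcrq and Cox7a2 the 24 h arrays lie near those at 6 h.

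The 6 h calls depended on few arrays. All 5 were lost without either 0 h replicate, without either 24 h replicate, or when only the 0 and 6 h arrays were fitted, while all 5 were kept without 6 h replicate 1, the array with the other cells' markers, and 7 genes were called without 6 h replicate 2. Their log2 differences stayed between -1.09 and -0.65 under the alternatives tried, with adjusted p from 0.0044 to 0.20. Markers of natural killer cells also fell at 6 h, 3 of the 5 tested, with Nkg7 at -1.46 ± 0.18. The summed deposited signal of 8 such genes, not normalised, was 2657.8 and 2045.1 at 0 h, 594.6 and 1039 at 6 h, and 1917.8 and 1231.3 at 24 h. Of 11 T cell markers 2 fell, with a median of -0.31. The part of these cells in the respiratory chain values was not tested.

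By complex, the medians at 6 h were -0.11 for complex I, -0.14 for complex II, -0.12 for complex III, -0.01 for complex IV and -0.15 for complex V. In complex V 14 of 16 genes were below 0, in complex I 27 of 34, and in complex IV 5 of 10. A further 5 genes had an unadjusted p under 0.05 without passing the test: Ndufb10 at -0.74, Atp5h (subunit d of the ATP synthase stalk) at -0.51, Atp5e at -0.46, Ndufb5 at -0.44 and Uqcr11 at -0.41. Among all features 3235 of 11040 had an unadjusted p under 0.05, against 10 of the 69 genes, a lower share. The highest positive difference was that of Ndufa7 (0.29, adjusted p = 0.21). The 95% intervals of 63 of the 69 genes lay wholly within 1 log2 unit of 0. Their median half-width over the 69 genes was 0.33, and a difference smaller than its own half-width could not be told from 0.

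At 24 h only Uqcrq and Cox7a2 passed the test against 0 h, both lower, which is 2.9% of the 69 genes, while 6.25% of all features were called (3.31% as rises and 2.94% as falls). Of the other 67 genes, 6 had an unadjusted p under 0.05. Among them was Cox7a2l, which promotes the joining of complexes III and IV, at 0.36 ± 0.14 (adjusted p = 0.17). An unadjusted p under 0.05 was found for 2788 of all 11040 features, against 8 of the 69 genes, a lower share. The median was -0.03 over the 69 genes and 0 over all features, and 24 genes and 49.8% of all features lay above 0. With each array scaled to its mean the medians were -0.13 and -0.01, and 11 genes lay above 0. Of the 5 natural killer markers tested, 3 were called lower at 24 h as well: Klra7 at -1.34 ± 0.25, Klrd1 at -1.33 ± 0.17 and Klra3 at -1.07 ± 0.16. Klre1 (-1.20 ± 0.27) did not pass, nor did Nkg7, which had fallen at 6 h and stood at 0.05 ± 0.18. From 6 to 24 h Nkg7 rose by 1.51 ± 0.18 (limma, adjusted p = 0.043). The part of natural killer cells in the respiratory chain values was not tested. The groups did not overlap for 9 genes that were higher (background 31.2%) and 22 that were lower (background 31.9%). The count of 2 was 0 without either 0 h or either 24 h replicate and 5 or 6 without 6 h replicate 1 or 2.

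From 6 to 24 h no respiratory chain gene was called by limma, against 0.444% of all features (0.136% as rises and 0.308% as falls), and 3 had an unadjusted p under 0.05, all higher at 24 h. These were Ndufb2 (0.50 ± 0.15, adjusted p = 0.20), Cox7b (0.39 ± 0.14, adjusted p = 0.26) and Atp5h (0.34 ± 0.12, adjusted p = 0.24). Among all features 1883 of 11040 had an unadjusted p under 0.05, a higher share than 3 of the 69 genes. Of the 69 genes, 44 lay above 0, as did 55.6% of all features, and the median was 0.05 (0.04 over all features). Groups that did not overlap were found for 22 higher genes (background 27.1%) and 7 lower ones (background 20.4%). Without 6 h replicate 2 the count was 1.

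**Figure D2:**
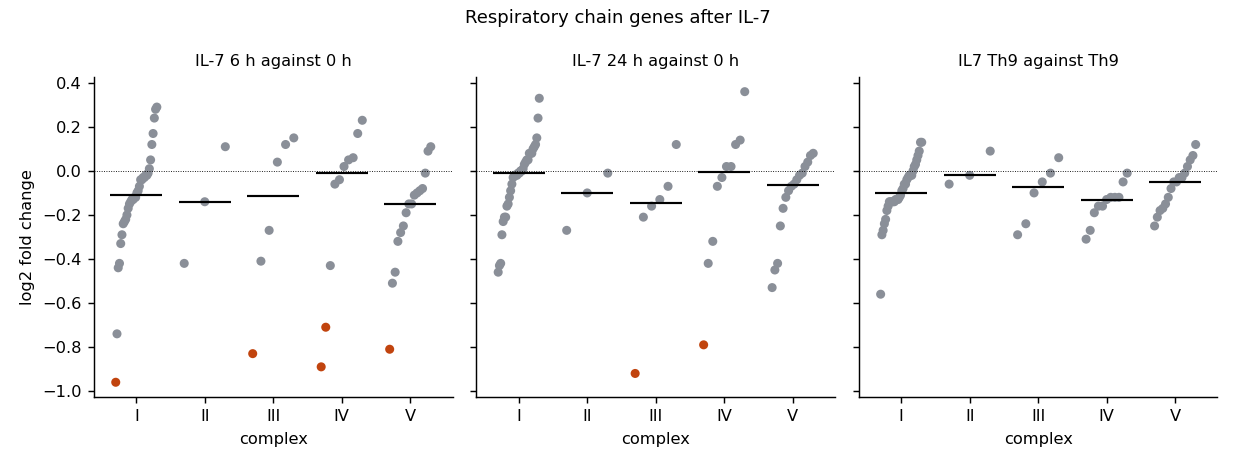
Log2 fold change (vertical axis) of each respiratory chain gene by complex (horizontal axis, ordered by size within a complex) at 6 h of IL-7, at 24 h of IL-7 and in IL7 Th9 against Th9. Orange points passed the test, grey points did not and bars are the medians of a complex; 5, 2 and 0 genes are orange, all below 0.

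In Th9 cells, earlier IL-7 was followed by no called change in the respiratory chain. Of 70 genes tested 0 passed limma's test and 0 had an unadjusted p under 0.05. Among all features 0.344% were called (0.156% as rises and 0.188% as falls), and 947 of 9594 had an unadjusted p under 0.05. Of the 70 genes 56 nevertheless lay below 0, while 47.7% of all features lay above 0. The median of the 70 genes was -0.10, against -0.01 over all features. In 10 genes the groups did not overlap, all lower (background 8.24%, and 6.35% for higher). Of 33 further detected probes of respiratory chain genes, 19 had the same sign as the probe used. Some markers of other cells were lower in the same comparison: the haemoglobin gene Hbb-bt fell by 2.90 (SE 0.21, adjusted p = 0.00096), and Nkg7 of natural killer cells (-0.56 ± 0.20, adjusted p = 0.38) and Cd79b of B cells (-0.57 ± 0.21, adjusted p = 0.41) had lower groups that did not overlap. Of 2 myeloid genes tested, Lyz1 was at 0.60 ± 0.30 and Cst3 at -0.25 ± 0.18, and neither passed. The summed deposited signal of 5 red cell genes was 130.4 to 230.5 in Th9 and -11.7 to 21.2 in IL7 Th9, that of 8 natural killer genes 290.7 to 408 and 150.1 to 336.5, and that of 9 B cell genes 942.2 to 1631.9 and 551 to 1120.6. These sums are not normalised, and the mean signal of an array was 139.1 to 221.6 in Th9 and 116.1 to 179.9 in IL7 Th9. The part of these other cells in the respiratory chain values was not tested. All 11 tested genes of complex IV were below 0, between -0.31 and -0.01. No count of calls differed from 0 under the alternatives tried.

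The lowest p belonged to Ndufb2, at 7.17, 7.11 and 6.18 in Th9 and 6.12, 6.14 and 6.52 in IL7 Th9. The groups overlapped through Th9 replicate 3, and the difference was -0.56 ± 0.26 (adjusted p = 0.54). Ndufv1, the core subunit that takes electrons from NADH, was at 10.36, 10.42 and 10.38 in Th9 and 10.13, 10.18 and 10.06 in IL7 Th9. Its groups did not overlap, and its difference of -0.27 ± 0.13 did not pass the test (adjusted p = 0.56), nor did that of Ndufb3 (-0.29 ± 0.14, adjusted p = 0.56). Cox4i1, the common form of cytochrome oxidase subunit IV, differed by -0.27 ± 0.14 with groups that did not overlap (12.1, 12.27 and 12.02 against 11.9, 11.87 and 11.8). The intervals of 69 of the 70 genes lay within 1 log2 unit of 0 and had a median half-width of 0.32.

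Th9 cultures were higher than untreated naive cells over most of the chain. With all 12 arrays normalised and fitted together, 48 of 72 genes rose and 4 fell in Th9 against 0 h, and 20 did not pass the test. The median log2 difference was 0.75, against -0.08 over all features. The 3 Th9 arrays lay wholly above the 2 untreated ones for 56 genes (37.5% of all features) and wholly below for 8 (42.8% of all features). Calls were common in this comparison: 66.8% of all features were called, 31.4% as rises and 35.4% as falls, against 72.2% of the respiratory chain genes called in either direction and 5.56% as falls. The share called was thus near the background, while rises were 66.7% of these genes and 31.4% of all features. Cox7a1, Cox6a2 and Cox4i2 passed the filter only with the help of the Th9 arrays. Of these only Cox7a1 is among the 48 rises, and it had to be detected on Th9 arrays to be kept. Without these 3, 47 of 69 genes rose, 4 fell and the median was 0.75. The cells of each experiment were hybridised on their own BeadChip, so chip, experiment and cell state cannot be told apart here.

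The arrays showed the split without any fit. As deviations of each gene from its 12-array mean, the median over the 72 genes ran from -0.46 to -0.28 on the 6 naive arrays and from 0.30 to 0.48 on the 6 Th9 arrays, while the median over all features stayed between -0.06 and 0.04. All 6 Th9 arrays lay above all 6 naive arrays for 51 genes (background 27.1%) and below them for 6 (background 29.9%), and the remaining 15 overlapped. Scaling by the array mean in place of quantile normalisation moved the median over all features from -0.08 to 0.02 and that of the respiratory chain genes from 0.75 to 0.83, a difference between them of 0.84 and 0.81. Under that scaling 56 genes rose and 7 fell, and rises made up 51.1% of all calls in place of 47%.

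**Figure D3:**
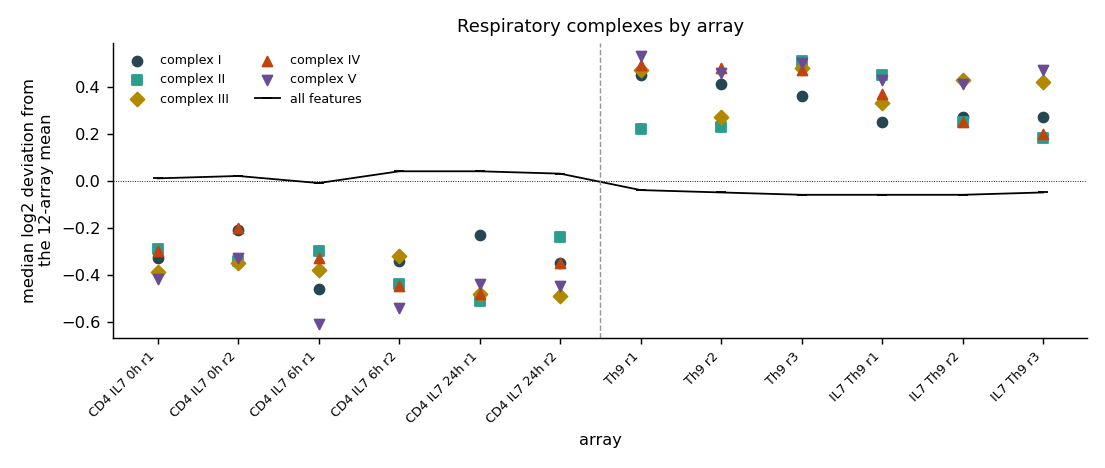
Median deviation of the genes of each complex from their 12-array means (vertical axis, log2) on each array (horizontal axis), with the median over all features as a line and a dashed line between the experiments. Every complex is below 0 on the 6 naive arrays and above 0 on the 6 Th9 arrays, while the line stays near 0.

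Complex I, which oxidises NADH, had 21 rises and 2 falls among 34 genes, with a median of 0.63. Its largest rise was that of Ndufa12, an accessory subunit of the matrix arm. Its signals were 8.94 and 9.16 at 0 h, 9 and 9.03 at 6 h, 8.96 and 9.24 at 24 h, 11.02, 11.03 and 11.31 in Th9, and 11.16, 10.98 and 11.29 in IL7 Th9. The naive and Th9 arrays were well apart with or without IL-7, and Th9 exceeded 0 h by 2.07 ± 0.16 (4.2-fold, adjusted p = 5.7e-07). Ndufb6, of the membrane arm, rose by 1.81 ± 0.13 (adjusted p = 4.7e-07), from 10.17 and 10.2 to 11.96, 11.93 and 12.1. Ndufs5-ps, which the symbol rule takes although the name marks a pseudogene, rose by 1.96 ± 0.15 (adjusted p = 5.4e-07), and its probe may read Ndufs5 as well. Core subunits differed among themselves: Ndufv2 (0.91) and Ndufs8 (0.84) rose, while Ndufv1 (0.13, adjusted p = 0.35) and Ndufs7 (-0.09, adjusted p = 0.51) did not pass.

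Ndufb10 and Ndufa3, accessory subunits of complex I, went the other way. Ndufb10 was at 9.03 and 9.04 at 0 h, 8.09 and 8.42 at 6 h, 8.82 and 8.36 at 24 h, 7.55, 7.74 and 7.67 in Th9, and 7.56, 7.91 and 7.88 in IL7 Th9. All Th9 arrays lay below all naive arrays, and the gene fell by 1.38 (SE 0.18, adjusted p = 3.7e-05). Ndufa3 fell by 0.89 (SE 0.16, adjusted p = 0.00056), from 11.06 and 11.18 to 10.45, 10.07 and 10.18. A second detected probe moved the same way for both, by -1.16 for Ndufb10 and -1.02 for Ndufa3.

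In complex II, the succinate dehydrogenase of the citric acid cycle, the iron-sulphur subunit Sdhb rose by 0.82 ± 0.17 (adjusted p = 0.0013) and the membrane anchor Sdhc by 0.72 ± 0.18 (adjusted p = 0.0049). Sdhb stood at 9.26 and 9.17 at 0 h and at 10.04, 9.99 and 10.06 in Th9. The other anchor, Sdhd, was at 7.36 and 6.81 against 7.1, 7.08 and 7.26, groups that overlap, with a 95% interval of -0.37 to 0.49.

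In complex III 4 of 6 genes rose, with a median of 0.79 over the 6. Uqcr10 led, at 11.76 and 11.73 at 0 h and 13.06, 13.09 and 13.12 in Th9, a rise of 1.35 ± 0.12 (adjusted p = 2.3e-06). Uqcr11 (1.02 ± 0.12), Uqcrc1 (0.86 ± 0.15) and Uqcrc2 (0.73 ± 0.14) also rose, the last pair being the core proteins of the complex. Uqcrh, the hinge protein, stood at -0.02 with an interval of -0.33 to 0.29. Uqcrq, which fell after IL-7 in naive cells, was at 8.15, 8.5 and 8.52 in Th9 against 8.73 on both 0 h arrays (-0.34 ± 0.14, adjusted p = 0.051), so its lowest and highest values among the 5 groups lay in naive cells with and without IL-7.

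**Figure D4:**
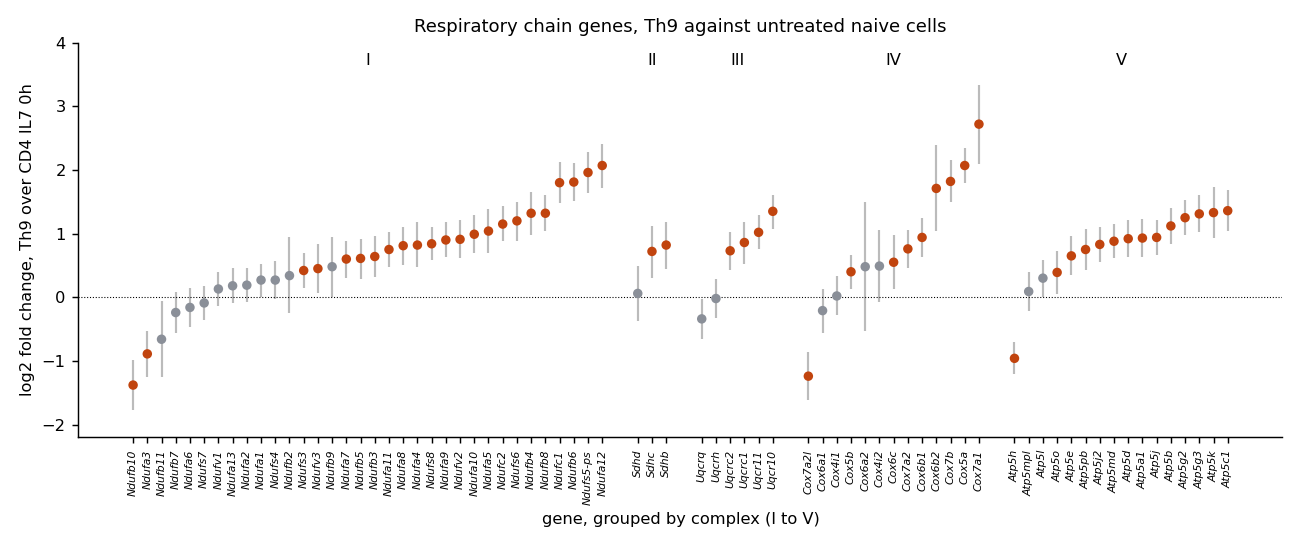
Log2 fold change of each respiratory chain gene in Th9 against untreated naive cells (vertical axis) with its 95% interval, by complex and in order of size (horizontal axis). Orange points passed the test and grey points did not; 48 genes lie above 0 in orange and Ndufb10, Ndufa3, Cox7a2l and Atp5h below 0.

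Complex IV, which hands the electrons to oxygen, had 8 rises, 1 fall and a median of 0.55 over 13 genes. Over the 10 that passed the filter on the naive arrays, 7 rose and 1 fell, and the differences ran from -1.24 to 2.07 with a median of 0.66. Several of its subunits exist in forms encoded by different genes. Cox7a1, the subunit VIIa form of heart and skeletal muscle, was not above background on any of the 6 naive arrays (4.37 to 4.65) and was detected on all 6 Th9 arrays, at 7.37, 6.94 and 7.41 in Th9 and 7.64, 7.25 and 6.44 in IL7 Th9. It was at least 4.97-fold higher in Th9, where the bound sets the Th9 mean against the lowest signal detected on the untreated arrays. Because the gene was kept only through the Th9 arrays, this is a description and no test is given. Cox7a2, the common form, rose by 0.76 ± 0.14 (adjusted p = 0.00045), from 7.12 and 7.1 to 7.92, 7.85 and 7.83. Cox7a2l, which is related in sequence but is known as a supercomplex factor, fell by 1.24 (SE 0.17, adjusted p = 7.2e-05). It was at 11.92 and 12 at 0 h, 12.07 and 12.32 at 6 h, 12.31 and 12.34 at 24 h, 10.97, 10.65 and 10.54 in Th9 and 10.37, 10.69 and 10.24 in IL7 Th9, with no overlap between the experiments.

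Cox6b2, the subunit VIb form described in testis, was not above background on either 0 h array (4.73 and 4.67) and was at 6.9, 6.29 and 6.05 in Th9, at least 2.80-fold higher (adjusted p = 0.00042). Its common counterpart Cox6b1 rose by 0.94 ± 0.14 (adjusted p = 9.7e-05). Cox6a2, the heart form of subunit VIa, was detected on 3 of 12 arrays, the brightest being 6 h replicate 1 at 6.24, the array with markers of other cells, against 4.27 to 4.65 on the other naive arrays. Their part in this value was not tested. Cox6a1, the common form, did not pass (-0.21 ± 0.16, adjusted p = 0.25). Cox4i2, a form known from lung and from cells in low oxygen, was detected on 2 of 12 arrays, and Cox4i1 stood at 0.02, with an interval of -0.28 to 0.33.

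Of the complex IV genes detected on all arrays, Cox5a rose most. It was at 10.57 and 10.59 at 0 h, 10.41 and 10.63 at 6 h, 10.73 and 10.77 at 24 h, 12.6, 12.64 and 12.71 in Th9 and 12.6, 12.51 and 12.67 in IL7 Th9. The difference of 2.07 ± 0.12 (4.2-fold, adjusted p = 1e-07) was many times the spread within any group, the largest SD being 0.15. Cox7b, 1 of the genes that fell at 6 h of IL-7, rose by 1.82 ± 0.15 (adjusted p = 1.1e-06), from 6.76 and 6.71 to 8.35, 8.69 and 8.64. Ndufa4, named for complex I but now assigned to complex IV, rose by 0.82 ± 0.16 (adjusted p = 0.00081).

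Complex V had 13 rises and 1 fall among 16 genes and the highest median, 0.90. Atp5c1, the rotating shaft of the motor, was at 11.31 and 11.09 at 0 h, 11.08 and 10.64 at 6 h, 10.65 and 10.82 at 24 h, 12.54, 12.56 and 12.6 in Th9 and 12.44, 12.4 and 12.47 in IL7 Th9. It rose by 1.36 ± 0.15 (adjusted p = 1e-05). The catalytic subunit Atp5b rose by 1.12 ± 0.13, and Atp5g2 and Atp5g3, which encode the same proton-carrying c subunit, by 1.25 ± 0.12 and 1.31 ± 0.13. Atp5a1 rose by 0.93 ± 0.13 on the probe used, while its other detected probe was at -0.62. Atp5h, which belongs to the stalk that holds the motor still, fell by 0.96 (SE 0.12, adjusted p = 2.2e-05): it was at 10.58 and 10.64 at 0 h, 9.97 and 10.11 at 6 h, 10.42 and 10.43 at 24 h, 9.7, 9.65 and 9.59 in Th9 and 9.44, 9.47 and 9.43 in IL7 Th9. It was lowest in IL7 Th9 and highest in untreated naive cells, with every Th9 array below every naive array.

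Further detected probes of a gene did not always move with the probe used. In the 4 IL-7 comparisons within an experiment 19 or 20 of 33 further probes had the same sign, and none belonged to a called gene. The direction of the small IL-7 differences was thus often not shared by a further probe. In Th9 against 0 h 24 of 33 further probes had the same sign, and 21 of 26 among genes that were called. The exceptions were a probe each of Ndufb8 (-1.13 against 1.32), Ndufv3 (-0.09 against 0.45), Atp5a1 (-0.62 against 0.93), Atp5k (-0.43 against 1.33) and Atp5pb (-0.61 against 0.75), so the direction of these 5 genes depends on the probe. With all probes of a gene averaged, Atp5a1 (0.15, adjusted p = 0.27), Atp5k (0.45, adjusted p = 0.058), Ndufb8 (0.09, adjusted p = 0.57) and Ndufv3 did not pass. Cox7a2l, Atp5h, Ndufa12, Cox5a and Cox7a1 have 1 detected probe each. All 4 falls and the rises of Cox5a, Ndufa12, Ndufs5-ps, Cox7b and Ndufb6 stayed called in every alternative in which they were tested.

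The promoters of the respiratory chain genes were searched for motifs of 4 factors. NRF1 (nuclear respiratory factor 1) and the ETS-family factor GABP are textbook regulators of these genes, and YY1 and SP factors bind many of them. RefSeq promoters (build GRCm38.p6, 250 bases before to 50 after the start) were found for 60 of the 72 genes and were searched on both strands. The NRF1 motif, GCGCA and GCGC with any base between them, was present in 15 of 60 (25%), against 7.17% of all protein-coding genes. CCGGAAG, an ETS motif, was in 16 (26.7%, against 12.9%), AAGATGG, a YY1 motif, in 10 (16.7%, against 7.18%) and GGGCGG, an SP motif, in 27 (45%, against 49.2%). None of these motifs holds another, although neighbouring matches may overlap, and a match is a description of the sequence and not a site of binding. The NRF1 motif was in 11 of the 43 matched genes that rose in Th9 and in 4 of the other 17, a share of about the same size.

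The sequences below are the 250 bases before the start of 4 genes. Ndufb4 and Atp5k were chosen to show NRF1 motifs in genes that rose, by 1.32 and 1.33. The rise of Atp5k is that of the probe used, and its other detected probe moved the other way. Cox6a1 was chosen to show NRF1 motifs in a gene that did not pass the test. Cox7a1, which was detected on the Th9 arrays only, was chosen to show a window without any. Ndufb4 lies on the minus strand at chr16:37654369-37654618, Atp5k on the minus strand at chr5:108434400-108434649, Cox6a1 on the minus strand at chr5:115348959-115349208 and Cox7a1 on the plus strand at chr7:30183921-30184170. Each is written 5′ to 3′ on the strand of the gene, and capitals mark matches to the 4 motifs or their reverse complements.
Ndufb4: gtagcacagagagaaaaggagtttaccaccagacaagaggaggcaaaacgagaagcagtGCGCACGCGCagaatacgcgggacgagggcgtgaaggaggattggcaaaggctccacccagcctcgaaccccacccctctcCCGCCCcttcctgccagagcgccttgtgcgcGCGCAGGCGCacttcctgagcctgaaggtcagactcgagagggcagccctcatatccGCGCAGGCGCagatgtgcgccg
Atp5k: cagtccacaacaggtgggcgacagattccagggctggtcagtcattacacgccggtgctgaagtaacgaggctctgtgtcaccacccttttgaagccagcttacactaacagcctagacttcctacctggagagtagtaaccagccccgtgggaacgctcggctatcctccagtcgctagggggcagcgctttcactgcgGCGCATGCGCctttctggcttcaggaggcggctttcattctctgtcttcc
Cox6a1: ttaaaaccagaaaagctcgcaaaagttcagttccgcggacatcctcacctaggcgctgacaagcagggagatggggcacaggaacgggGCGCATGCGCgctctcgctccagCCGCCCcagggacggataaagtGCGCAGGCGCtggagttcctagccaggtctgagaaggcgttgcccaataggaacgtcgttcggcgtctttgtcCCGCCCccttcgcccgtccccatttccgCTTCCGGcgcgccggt
Cox7a1: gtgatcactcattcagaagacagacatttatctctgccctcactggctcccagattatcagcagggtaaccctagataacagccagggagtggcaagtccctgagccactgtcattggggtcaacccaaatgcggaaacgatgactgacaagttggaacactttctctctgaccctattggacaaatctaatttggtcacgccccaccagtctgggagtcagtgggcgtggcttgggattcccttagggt
Ndufb4 holds 3 NRF1 motifs, which begin 191, 79 and 22 bases before the start, and Cox6a1 holds 2, at 162 and 117. Atp5k has 1, at 50, and a further ETS motif in the 50 bases after the start, which are not printed. The Cox7a1 window has no match to any of the 4.

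Genes around the chain moved in different directions in Th9 cultures, again against a background of 66.8% called and with chip and cell state not told apart. The lists were drawn up with earlier results of these data known. Unlike the respiratory chain genes, they were not recounted without genes kept only with the help of the Th9 arrays. Of 72 tested mitochondrial ribosome genes, which make the proteins encoded in mitochondrial DNA, 55 rose and 2 fell (median 0.97), led by Mrps10 (2.45 ± 0.16). Of 27 genes of protein import and folding 21 rose and 2 fell (median 0.79), with Timm8b (2.12 ± 0.14) and Tomm40 (1.95 ± 0.20) highest. The rises include Timm23 (0.47 ± 0.18), which was detected on no array of Th9 or 0 h. All 11 carriers and channels of the inner and outer membrane rose (median 1.16), among them the ADP/ATP carriers Slc25a4 (2.75 ± 0.17) and Slc25a5 (1.55 ± 0.12). Of 41 assembly factors 23 rose and 7 fell (median 0.52), from the copper chaperone Cox17 (2.25 ± 0.14) to Cox20 (-1.39 ± 0.17). Citric acid cycle genes were less uniform, with 7 rises and 3 falls among 17 (median 0.17), from fumarase, Fh1 (2.31 ± 0.15), to the inhibitory kinase Pdk1 (-1.46 ± 0.28). Parts of the chain outside the symbol rule included Cyc1 (1.45 ± 0.14), Cycs (cytochrome c, 1.19 ± 0.14), Ndufab1 (1.87 ± 0.12) and Atpif1, the inhibitor of ATP synthase, at 3.06 ± 0.14, and 4 of these 5 genes rose. Of 10 mitochondrial antioxidant genes 6 rose and 1 fell (median 0.51).

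Subunits encoded in mitochondrial DNA did not rise. Of the 8 genes with a detected probe 0 rose, 4 fell and the median was -0.60. In the same comparison, Th9 against 0 h, 35.4% of all features fell and 31.4% rose. Chip, experiment and cell state cannot be told apart in it. ATP6, of complex V, was at 13.09 and 12.96 at 0 h, 12.67 and 12.71 at 6 h, 12.89 and 12.66 at 24 h, 11.82, 11.79 and 11.83 in Th9 and 11.73, 11.93 and 11.71 in IL7 Th9. All Th9 arrays were below all naive ones, and it fell by 1.21 (SE 0.13, adjusted p = 8.9e-06). CYTB, of complex III, fell by 1.11 (SE 0.14, adjusted p = 4e-05), ND6 by 1.25 (SE 0.24, adjusted p = 0.00067) and ND4 by 0.42 (SE 0.16, adjusted p = 0.036), the last pair being of complex I. ND1, ND4L, ND5 and COX2 had differences between -0.73 and -0.16 that did not pass, and ND5 alone spanned 7.59 to 10.21 within the naive arrays. Scaling by the array mean left 3 falls and a median of -0.54. After IL-7, 0 of these 8 genes were called at 6 h, at 24 h or in IL7 Th9, and 0, 0 and 0 had an unadjusted p under 0.05.

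**Figure D5:**
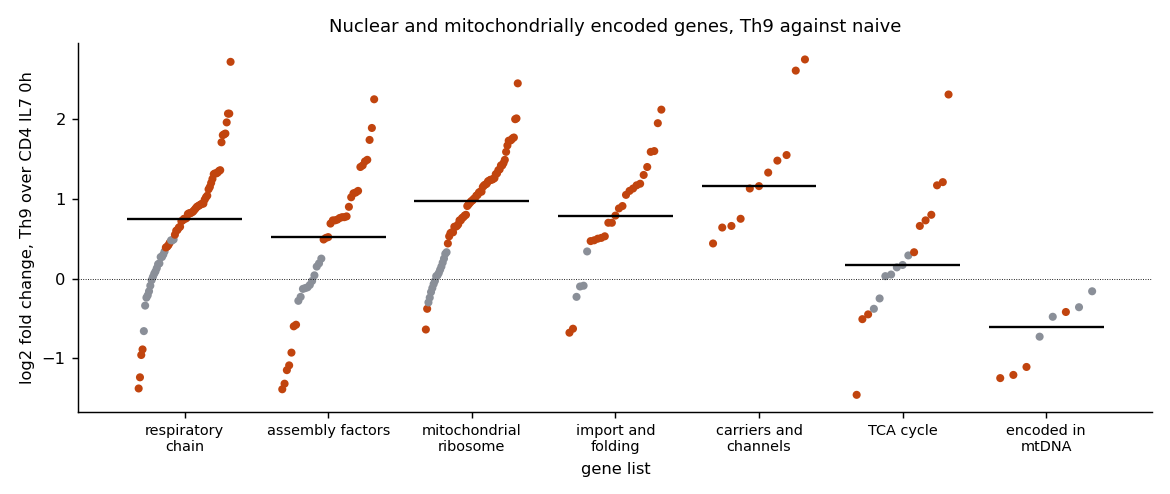
Log2 fold change in Th9 against untreated naive cells (vertical axis) for the respiratory chain genes, 5 lists of nuclear genes of the mitochondrion and the 8 genes encoded in mitochondrial DNA (horizontal axis, ordered by size within a list). Orange points passed the test, grey points did not and bars are medians, which run from 0.17 to 1.16 for the nuclear lists and stand at -0.60 for mitochondrial DNA.

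Among 17 genes for regulators of mitochondrial content 4 rose and 3 fell, fewer in each direction than the 31.4% and 35.4% of all features. Myc, the growth factor-induced transcription factor, rose by 1.59 ± 0.17, and the GABP subunits Gabpb1 and Gabpa by 1.58 ± 0.22 and 0.67 ± 0.17. The mitochondrial RNA polymerase Polrmt fell by 1.64 (SE 0.15, adjusted p = 2.6e-06) and Nrf1 by 1.41 (SE 0.18, adjusted p = 3.5e-05). Tfam, the packaging factor of mitochondrial DNA, did not pass (-0.23 ± 0.17). T cell marker genes fell in the same comparison, 10 of 11 with a median of -1.13, from Cd3e at -2.90 ± 0.14 to Cd2 at -0.16 ± 0.18, which did not pass. Of 5 natural killer markers 4 fell, and Klra3 rose by 1.77 ± 0.52 (limma, adjusted p = 0.011). The summed deposited signal of natural killer markers, not normalised, was 2657.8 and 2045.1 at 0 h and 290.7 to 408 in Th9. The part of either in the values above was not tested.

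In naive cells the counts called in these lists at 6 h stand beside 9.51% of all features, and those at 24 h beside 6.25%. At 6 h of IL-7 the falls included the mitochondrial chaperonins Hspe1 (-1.31 ± 0.15, adjusted p = 0.011) and Hspd1 (-1.24 ± 0.15, adjusted p = 0.013), which with Timm9 made 3 of 26 import and folding genes, 3 of 72 mitochondrial ribosome genes, 2 of 40 assembly factors (Ndufaf4 and Cox20), Cycs, and the citric acid cycle genes Idh2 and Suclg1 of 17. Of the 17 regulators 2 rose, Polg2 (1.26 ± 0.12, adjusted p = 0.0082) and Myc (0.88 ± 0.16, adjusted p = 0.026), and 2 fell, Ppargc1b (-0.64 ± 0.15, adjusted p = 0.046) and the mitochondrial DNA helicase Twnk (-0.58 ± 0.12, adjusted p = 0.039). Of 10 antioxidant genes 1 rose, Sod1 (0.54 ± 0.12, adjusted p = 0.042). With all 12 arrays normalised together Myc was at 5.23 and 5.5 at 0 h, 6.08 and 6.28 at 6 h, and 6.91 on both 24 h arrays, with no overlap between times, and at 24 h it was up by 1.64 ± 0.16 (adjusted p = 0.0077). At 24 h no gene of the mitochondrial ribosome, assembly, carrier or citric acid cycle lists was called, and of the import list Hspe1 was (-0.71 ± 0.15, adjusted p = 0.048).

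The IL-7 effect in naive cells at 24 h was set against the IL-7 effect in Th9 cultures as a difference of differences, each taken within its own chip. The IL7 Th9 cells had IL-7 for 48 h as naive cells, before 3 days of Th9 culture. Length and timing of exposure, culture and cell state therefore cannot be told apart in this difference. No respiratory chain gene passed limma's test, and 6 of 72 had an unadjusted p under 0.05. Among all features 3.75% were called (2.06% as higher and 1.69% as lower), and 2210 of 12248 had an unadjusted p under 0.05. The median difference was 0.02 over the 72 genes. The lowest p belonged to Uqcrq, whose IL-7 effect was lower in naive cells by -0.68 ± 0.20 on the log2 scale (adjusted p = 0.098), followed by Cox7a2 (-0.61 ± 0.19, adjusted p = 0.12) and Atp5md (-0.53 ± 0.17, adjusted p = 0.13). The 95% intervals lay within 1 log2 unit of 0 for 65 of 72 genes. The data thus do not show that the 24 h effect and that of earlier IL-7 on the chain differed, nor that they were alike.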

How the data were processed

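Total RNA of 12 samples was hybridised to Illumina mouse BeadChips after extraction with Trizol and RNeasy and labelling of amplified RNA with biotin, per the labels' protocols. The intensity values and detection p-values of each probe are the authors' deposited GenomeStudio output before normalisation (GenomeStudio per the submitters' processing notes, version not given). A second deposited table of intensity values had probe names that did not match those of the first (Spearman correlations of -0.008 to 0.002 over 30854 shared names) and was used for that check alone. Probes were named through GEO's platform annotation: of 45281 probes 34885 had 1 symbol, 18 several and 10378 none.

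Signals were normalised in R 4.3.3 by the neqc function of limma, version 3.58.1 (normexp against negative controls inferred from the detection p-values, offset 16, quantile), for each experiment separately and for all 12 arrays together. Features detected (p under 0.01) on at least 2 of 6 arrays of the first experiment, 3 of 6 of the second or 2 of 12 in the joint fit were tested with lmFit and eBayes, 1 probe per symbol. The fits held all groups of an experiment, which share an estimate of the spread (3, 4 and 7 residual degrees of freedom), and p-values were adjusted by Benjamini-Hochberg over all features. The joint fit served Th9 against 0 h and the difference of the IL-7 effects. The number of arrays limits the precision. The method was tested on simulated data.

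The genes named were, per comparison, up to 6 called genes with the largest change each way (or the 3 with the lowest p where fewer than 3 were called), sets of isoforms, and the largest and smallest change of each complex. From other lists up to 4 called genes were named. Named outside that rule, after their values were seen, were Ndufb5, Ndufb10, Uqcr11, Atp5e and Atp5h at 6 h, and in Th9 Ndufv1, Ndufv2, Ndufs7, Ndufs8, Sdhc, Uqcr11, Uqcrc1, Uqcrc2, Uqcrh, Atp5a1, Atp5b, Gabpa, Tfam, Cox20 and Cd2 with the genes of discordant probes and printed promoters. The members and lists were chosen with earlier results of these data known.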

Additional observations from a re-analysis of the deposited data

Results flagged for a closer look

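By limma's test of the difference itself, the effects of IL-7 in naive cells and Th9 cultures differed for 2 genes around the respiratory chain. These were 1 of 41 assembly factors and 1 of 17 regulators tested, and no gene of the other mitochondrial lists. Over all features 3.75% were called. The naive effect was taken at 24 h, while IL7 Th9 cells had IL-7 for 48 h as naive cells, before 3 days of Th9 culture. Length and timing of exposure, culture and cell state cannot be told apart in this difference. Cox17, the chaperone that carries copper to cytochrome oxidase, had a difference of effects of 0.87 ± 0.19 on the log2 scale (adjusted p = 0.032). With all 12 arrays normalised together it stood at 10.35 and 10.67 at 0 h and 10.76 and 10.69 at 24 h, and at 12.87, 12.69 and 12.73 in Th9 and 12.04, 12.2 and 12.08 in IL7 Th9, where all 3 arrays were lower. Neither effect passed its own test (0.19, adjusted p = 0.45 at 24 h, and -0.61, adjusted p = 0.13 in Th9).

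Myc, a transcription factor of cell growth, had a difference of effects of 1.32 ± 0.24 (adjusted p = 0.016). It rose by 1.64 at 24 h of IL-7 and differed by 0.22 in IL7 Th9, which did not pass. No respiratory chain gene passed this test.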

How the results depend on the processing

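Of the respiratory chain genes named as called in Th9 against 0 h, Atp5a1, Atp5k and Ndufb8 did not pass with all probes averaged and Ndufv3 did not pass in 6 of 17 alternatives; the others kept direction and call wherever they were tested. The cause of the moves below was not tested, except where fewer arrays or other features entered the fit. Scaling by the array mean moved the median of the respiratory chain genes to -0.18 at 6 h, -0.13 at 24 h, -0.07 in IL7 Th9 and 0.83 in Th9 against 0 h, and that of the difference of effects from 0.02 to -0.05. It moved the share of higher calls over all features from 30.6% to 22.2% in 24 h against 6 h and from 44.2% to 52.2% at 6 h. Averaging all probes of a gene gave medians of -0.07 in IL7 Th9 and 0.70 in Th9 against 0 h.

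With no filter on detection the calls over all features were 534 in place of 1050 at 6 h, 221 in place of 690 at 24 h, 8 in place of 49 for 24 h against 6 h and 4 in place of 33 in IL7 Th9, and 1 respiratory chain gene was called at 24 h. Requiring detection on every array left 5304 calls in Th9 against 0 h, of 7353 tested, in place of 8186. With only the groups compared in the fit, 0 respiratory chain genes and 153 features were called at 6 h, 5 and 2393 at 24 h, and 1 feature for 24 h against 6 h. All 12 arrays together gave 116 calls in IL7 Th9.

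Same-numbered arrays had correlations of deviations of -0.19 to 0.14 in the first experiment and -0.10 to 0.29 in the second. With 2 arrays per group in the first experiment, the deviations of replicate 2 mirror those of replicate 1 and give the same correlations. Whether replicate numbers pair the arrays therefore cannot be decided from these few values. A fit with the number as a block called 1 respiratory chain gene at 24 h, 4 at 6 h and 5 features for 24 h against 6 h.

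Leaving out 1 array at a time, respiratory chain calls ran from 0 to 7 at 6 h, 0 to 6 at 24 h, 0 to 1 for 24 h against 6 h and 48 to 54 in Th9 against 0 h, and were 0 in IL7 Th9 and in the difference. Calls over all features ran from 3 to 2614, 1 to 2390, 0 to 1446, 6796 to 8323, 9 to 68 and 73 to 678 in that order. Medians ran from -0.15 to -0.04 at 6 h, -0.07 to 0.01 at 24 h, 0.04 to 0.13 for 24 h against 6 h, 0.70 to 0.80 in Th9 against 0 h, -0.09 to -0.08 in IL7 Th9 and -0.03 to 0.07 in the difference, where -0.03 came without 0 h replicate 1. Where this left 1 array in a group, that array was taken to vary like the others. Cox4i2, Cox6a2, Cox6b2 and Cox7a1 were near background on most naive arrays, which limits their values there.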
